A study of Mus musculus with 6 samples.

Results

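The platelet-derived growth factor (PDGF) genes described here are the ligand genes Pdgfa, Pdgfb, Pdgfc and Pdgfd and the receptor genes Pdgfra and Pdgfrb. They were chosen by name and matched by Ensembl ID, and all 6 were found among the 56941 gene IDs of the count table. All 6 also passed the filter on low counts, which left 17072 genes. The data are 6 bulk RNA-seq libraries of lung cells of mouse pups, taken on postnatal day 7 by magnetic beads against CD31, the adhesion molecule of endothelial cells encoded by Pecam1. Hyperoxia libraries (3) came from pups kept at 75% oxygen since postnatal day 0, and room air libraries (3) from pups kept at 21% oxygen over the same days. The labels used here give no strain, sex or genetic change, nor whether each replicate is an animal of its own, and the p-values therefore measure only the spread among these libraries. Neonatal hyperoxia is a model of the arrested alveolar growth seen in preterm infants given oxygen.

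PDGF ligands are secreted dimers that activate paired receptor tyrosine kinases. PDGF-A signals through the receptor encoded by Pdgfra, and in the newborn lung it comes from epithelium and is needed for the myofibroblasts that raise alveolar septa. PDGF-B is made by endothelial cells, is held near the vessel wall, and recruits pericytes that carry the receptor encoded by Pdgfrb. PDGF-C and PDGF-D are made as latent forms that proteases must cut, PDGF-C acting mainly on the first receptor and PDGF-D mainly on the second.

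The libraries held 39379793 to 42343192 counts. Pecam1 was at 1932 to 2649 CPM (counts relative to the TMM-scaled library total) in hyperoxia libraries and 2269 to 3109 CPM in room air libraries. The RNA of the libraries was not endothelial alone. Sftpc, the surfactant gene of alveolar type 2 epithelium, was at 8652 to 10875 CPM in hyperoxia and 7650 to 12970 CPM in room air. Whether it came from captured cells or from carried-over RNA was not tested. Reads of 4 Y-linked genes were present in hyperoxia 2 (6263 counts) and in all 3 room air libraries (5433 to 6361 counts), whereas hyperoxia 1 and 3 had 2 and 0 such counts. Xist, the RNA of the inactive X chromosome, went the other way, with 7007 and 9350 counts in hyperoxia 1 and 3 and 0 to 36 in the other libraries. The make-up by sex therefore differed between the groups, and each member is also given below with this difference in the fit.

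One of the 6 PDGF genes passed an adjusted p of 0.05 in edgeR's quasi-likelihood test. Pdgfa was higher in hyperoxia, whereas 6.77% of all genes tested were called higher. None of the 6 was called lower, against 4.41% of all genes, and 11.2% were called in either direction. Pdgfb and Pdgfra had lower values in every hyperoxia library than in any room air library but missed the threshold. With Pdgfa, 3 of the 6 genes had groups that did not overlap, against 30.9% of all genes tested. At an unadjusted p below 0.05 there were 3 members, the same 3 genes, with 2 of them lower. DESeq2's test called those 2 lower after adjustment, and over all genes it called 1242 lower and 1524 higher. Limma-voom called 0 of the 6 lower and 732 of all genes lower. The share of all genes at the unadjusted threshold is not given here. Counts at that threshold, for the members and for the lists below, are therefore not read as results. The median log2 fold change of the 6 was -0.01, as was that of all genes tested.

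**Figure D1:**
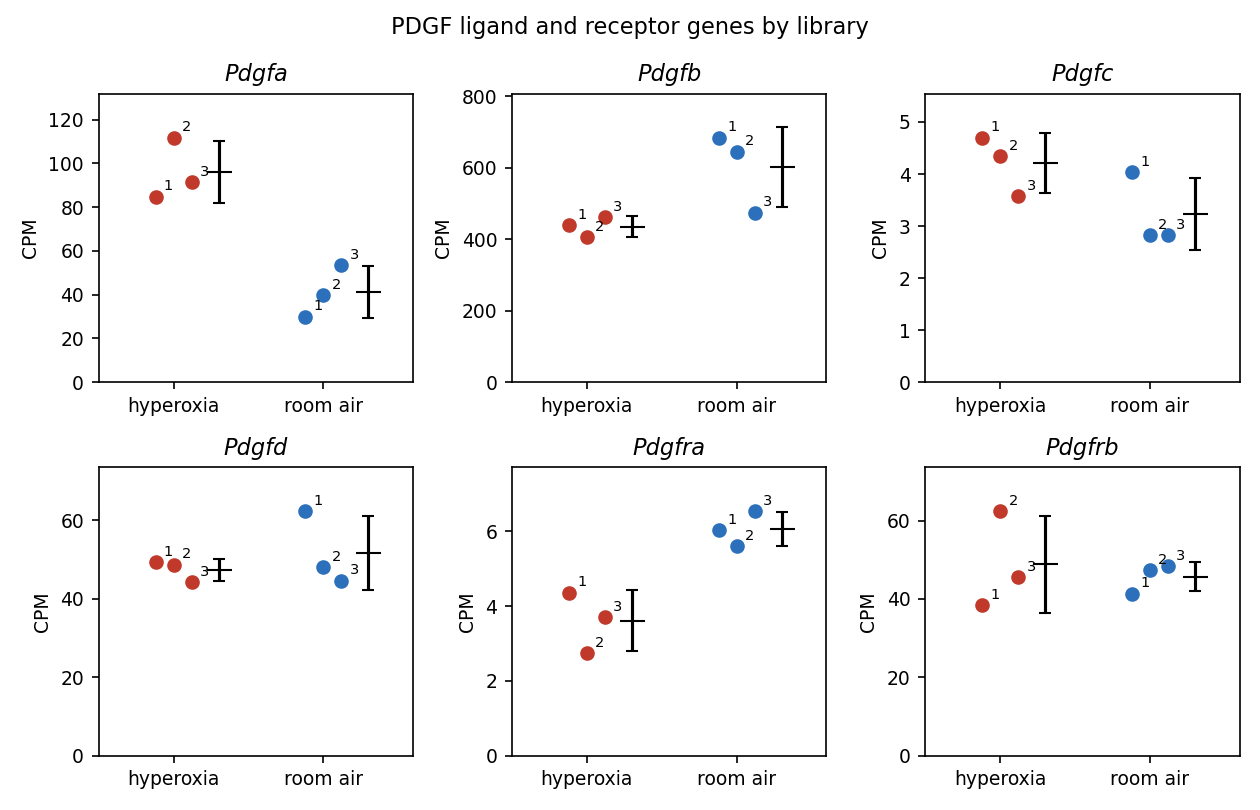
CPM after TMM scaling (vertical axes, from 0) of the 6 PDGF genes in each library, with replicate numbers beside the points and the group mean and SD as black bars. The hyperoxia points of Pdgfa (84.8 to 112 CPM) lie above all room air points, those of Pdgfb and Pdgfra lie below all room air points, and the groups of the other genes overlap.

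Pdgfa, which encodes the A chain, had the largest difference of the 6. Its promoter sequences are shown because it is the member whose change passed the test. The table of RefSeq promoters (build GRCm38.p6, while the counts are on GRCm39) lists a pair of start sites for Pdgfa on the minus strand, at which the 250 bases before each start lie at chr5:138994282-138994531 and chr5:138994945-138995194. Capitals mark the GC box, GGGCGG on either strand.
Pdgfa start site 1: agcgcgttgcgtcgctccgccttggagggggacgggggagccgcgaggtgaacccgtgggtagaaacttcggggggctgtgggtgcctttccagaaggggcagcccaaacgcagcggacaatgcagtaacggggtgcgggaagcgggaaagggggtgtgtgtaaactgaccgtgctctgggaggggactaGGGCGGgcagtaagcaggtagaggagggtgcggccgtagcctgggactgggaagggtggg
Pdgfa start site 2: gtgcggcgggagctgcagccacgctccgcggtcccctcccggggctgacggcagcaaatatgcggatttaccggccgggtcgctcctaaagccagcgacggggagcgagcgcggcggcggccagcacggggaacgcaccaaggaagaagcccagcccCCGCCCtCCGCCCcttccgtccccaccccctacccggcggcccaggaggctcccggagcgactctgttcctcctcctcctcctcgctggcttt
The first stretch was 66.4% G and C with 1 GC box, and the second was 72.4% G and C with 2 GC boxes on the other strand. A GC box was present in 32.7% of the 32851 promoter stretches of the same length. Neither the TATA box TATAAA nor the EGR1 motif GCGGGGGCG was found in either stretch, searched on both strands; these letters occur in 12.4% and 2.57% of all promoters. Entries were read for 4 of the 6 members, and none was read for Pdgfb and Pdgfrb. The reading skipped 1 chromosome, so it does not show that the table lacks both genes. The single entries of Pdgfc, Pdgfra and Pdgfd held no GC box and no EGR1 motif, and that of Pdgfd held 1 TATA box.

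Pdgfa had 84.8, 112 and 91.4 CPM in hyperoxia 1, 2 and 3, against 30.0, 39.8 and 53.5 CPM in room air 1, 2 and 3. The groups did not overlap, and hyperoxia 2 was the highest library. The means were 96.0 ± 14.1 CPM in hyperoxia and 41.1 ± 11.8 CPM in room air (SD, n = 3 each), a 2.34-fold difference. The log2 fold change was 1.22 (SE 0.19, 95% interval 0.80 to 1.65), with an adjusted p of 0.00274 in edgeR's quasi-likelihood test. In the GENCODE M21 annotation, 26.1% of the exonic bases of Pdgfa overlap 6330403L08Rik, a gene on the opposite strand. That gene rose too, with 17.0, 20.5 and 19.7 CPM in hyperoxia against 8.01, 9.51 and 7.94 CPM in room air (log2 fold change 1.17, SE 0.16, adjusted p = 0.00148 by edgeR). The strand setting of the counting is not given in the sources used here, so reads from the shared stretch cannot be told apart. The overlapping gene had 700 to 831 raw counts in hyperoxia and 329 to 373 in room air, and Pdgfa had 3498 to 4523 in hyperoxia and 1238 to 2217 in room air. The part of the overlap in the change of Pdgfa was not tested.

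Pdgfb, the ligand gene of endothelium, had 439, 405 and 462 CPM in hyperoxia 1, 2 and 3. Room air 1, 2 and 3 had 685, 645 and 475 CPM. The groups did not overlap, but room air 3 lay close above the highest hyperoxia library. The means were 435 ± 28.4 CPM in hyperoxia and 601 ± 112 CPM in room air (SD, n = 3 each). On the log2 scale the difference was -0.47 (SE 0.15, 95% interval -0.80 to -0.13), and the adjusted p of 0.0774 by edgeR missed the threshold. The call depended on the processing and on room air 3, which had the lowest sum of endothelial markers of its group (given below). Without room air 3 the log2 fold change was -0.61 with an adjusted p of 0.00890, and over the 6 fits with 1 library left out it lay between -0.61 and -0.37. With room air 3 kept, Pdgfb passed by DESeq2's test (adjusted p = 0.0130), with no filter on low counts (0.0175) and with scaling by library size only (0.0451). In bulk samples, fewer cells of a type and less RNA per cell cannot be told apart, for this gene and for the others.

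Pdgfd, the ligand of the second receptor that needs cutting, had 49.4, 48.7 and 44.2 CPM in hyperoxia and 62.4, 48.1 and 44.6 CPM in room air. The groups overlapped, and room air 1 was the highest library. The log2 fold change was -0.12 (SE 0.14), and its 95% interval of -0.42 to 0.17 excludes a change as large as that of Pdgfa. The adjusted p was 0.621 by edgeR, and leaving out room air 1 turned the difference to 0.023.

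Pdgfc, the other latent ligand, was scarce, with 4.70, 4.35 and 3.58 CPM in hyperoxia and 4.04, 2.83 and 2.82 CPM in room air. The counts behind these values were 141 to 194 per library in hyperoxia and 111 to 167 in room air. Hyperoxia 3 lay below room air 1, so the groups overlapped. On the log2 scale the difference was 0.38 (SE 0.27, 95% interval -0.21 to 0.98, adjusted p = 0.424 by edgeR), an interval on both sides of 0.

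Pdgfra, the receptor gene of lung fibroblasts and septal myofibroblasts, was also scarce. It had 4.36, 2.74 and 3.71 CPM in hyperoxia 1, 2 and 3, from 180, 111 and 146 counts. In room air 1, 2 and 3 it had 6.02, 5.61 and 6.54 CPM, from 249, 220 and 271 counts. Every hyperoxia library was below every room air library, and hyperoxia 2 was the lowest. The means were 3.6 ± 0.814 CPM in hyperoxia and 6.06 ± 0.465 CPM in room air (SD, n = 3 each). The log2 fold change was -0.75 (SE 0.25, 95% interval -1.29 to -0.20), with an adjusted p of 0.0803 by edgeR. DESeq2's test put it past the threshold, at an adjusted p of 0.0291. Genes on either strand overlapped 6.50% of its exonic bases.

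Pdgfrb, the receptor gene of pericytes, had 38.4, 62.5 and 45.6 CPM in hyperoxia and 41.4, 47.4 and 48.4 CPM in room air. The hyperoxia libraries held both the highest and the lowest value, so the groups overlapped. On the log2 scale the difference was 0.10 (SE 0.17, 95% interval -0.27 to 0.46, adjusted p = 0.769 by edgeR). Leaving out hyperoxia 2 turned it to -0.12.

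**Figure D2:**
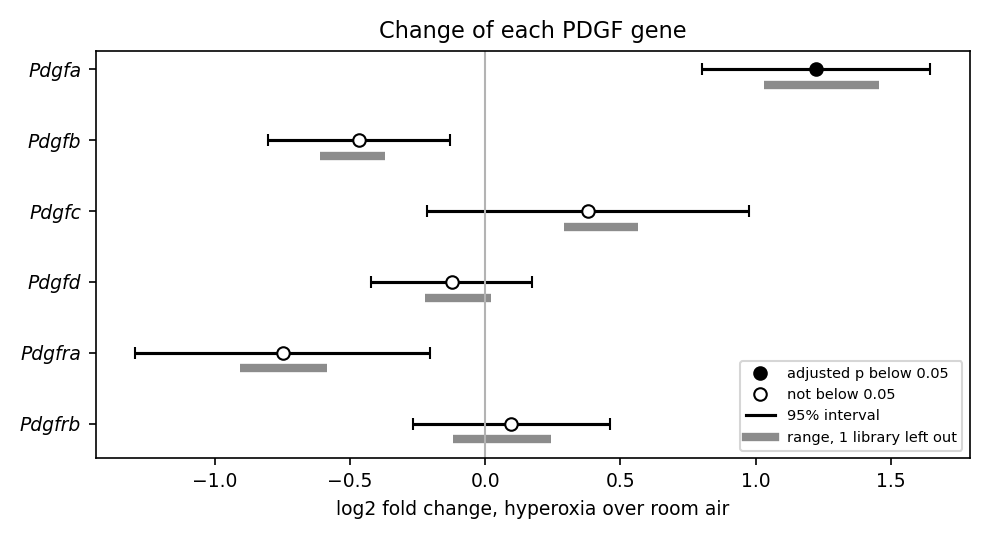
Log2 fold change of each PDGF gene, hyperoxia over room air (horizontal axis), with its 95% interval as a black line and the range over the 6 fits that leave out 1 library as a grey bar. Pdgfa (1.22) is the single gene past an adjusted p of 0.05, the intervals of Pdgfb and Pdgfra lie below 0, and those of the other genes include 0.

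Hyperoxia 2, the hyperoxia library with Y-linked reads, had the highest Pdgfa and Pdgfrb and the lowest Pdgfb and Pdgfra of its group. With the presence of Y-linked reads as a term, the log2 fold change of Pdgfa was 1.44 (adjusted p = 0.00394 by edgeR). In the same fit Pdgfra was at -1.14 and Pdgfb at -0.57. Pdgfrb was at 0.45 in that fit, Pdgfc at 0.43 and Pdgfd at -0.086. The 4 libraries with Y-linked reads alone, hyperoxia 2 against the room air group, gave 1.42 for Pdgfa. They gave -1.17 for Pdgfra and -0.60 for Pdgfb, with the lone hyperoxia library assumed to vary like the room air libraries. The libraries without Y-linked reads are all from hyperoxia and allow no comparison.

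Per kilobase of exon, Pdgfb was the most abundant of the 6 in every library. It averaged 105 ± 6.83 CPM per kb in hyperoxia and 145 ± 26.8 CPM per kb in room air. Pdgfa followed in hyperoxia, at 30.8 ± 4.52 CPM per kb, against 13.2 ± 3.79 CPM per kb in room air. Pdgfd was at 15 ± 0.886 CPM per kb in hyperoxia and 16.4 ± 2.98 CPM per kb in room air. In hyperoxia every Pdgfa value was above every Pdgfd value, whereas in room air the ranges of these neighbours overlapped (9.6 to 17.2 CPM per kb for Pdgfa and 14.2 to 19.8 for Pdgfd). The room air order of their means depended on the length used: per kilobase of the longest transcript, Pdgfa averaged 19.9 ± 5.74 CPM and Pdgfd 16.5 ± 3.0 CPM in room air, again with overlapping ranges, and their shares of the ligand sum were 8.62% and 6.84%. Pdgfrb came next, at 8.92 ± 2.25 CPM per kb in hyperoxia and 8.34 ± 0.691 in room air. Pdgfc, at 0.827 ± 0.113 and 0.635 ± 0.138 CPM per kb in hyperoxia and room air, and Pdgfra, at 0.360 ± 0.0812 and 0.604 ± 0.0464, were the lowest. Their ranges were apart in hyperoxia and overlapped in room air.

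As a share of the summed ligand CPM per kb, Pdgfa made up 18.2%, 24.0% and 18.9% in hyperoxia, against 4.93%, 6.95% and 11.8% in room air. Pdgfb made up 70.7%, 65.1% and 71.6% in hyperoxia and 84.5%, 84.4% and 78.2% in room air. These shares did not overlap between groups for either gene. Pdgfd held 9.04% to 10.5% in hyperoxia and 8.31% to 10.2% in room air, and Pdgfc 0.454% to 0.619% in hyperoxia and 0.303% to 0.408% in room air. The sum itself was 151 ± 3.27 CPM per kb in hyperoxia and 175 ± 25.6 CPM per kb in room air (SD, n = 3 each), with overlapping groups.

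**Figure D3:**
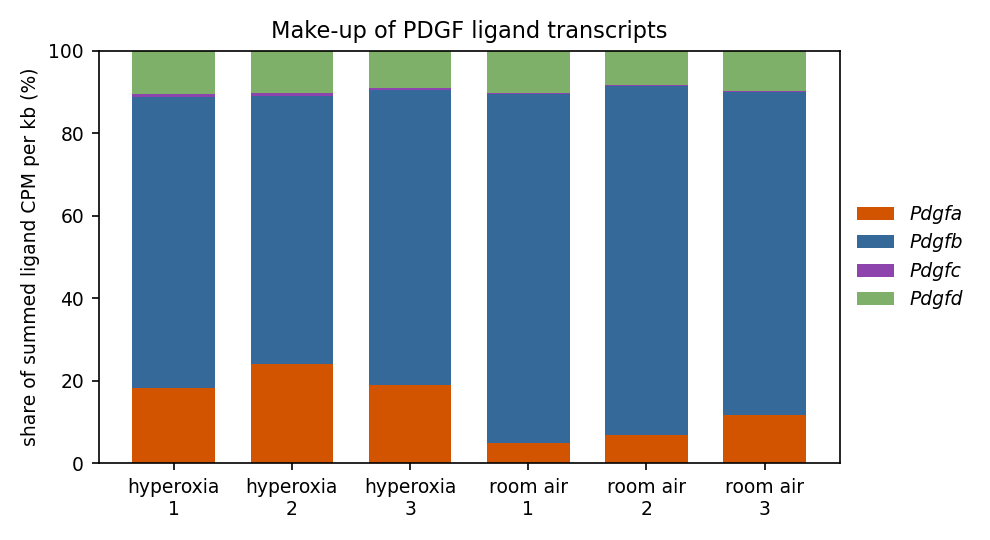
Share of each ligand gene in the summed ligand CPM per kb (vertical axis, percent), one stacked bar per library. The Pdgfa part is 18.2% to 24.0% in hyperoxia and 4.93% to 11.8% in room air, and the Pdgfb part is the largest in every library.

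The ratio of Pdgfb to Pdgfa per kilobase was 3.88, 2.72 and 3.79 in hyperoxia and 17.1, 12.2 and 6.65 in room air. The groups did not overlap, and the difference in the log2 ratio was -1.70. An exact two-sided permutation test gave p = 0.1, the smallest that 3 libraries against 3 allow, so no ratio could reach the threshold (adjusted p = 0.117 over 7 ratios between members). Pdgfd over Pdgfa differed by -1.37 on the log2 scale and Pdgfd over Pdgfb by 0.34, both without overlap. Pdgfc over Pdgfb differed by 0.84 and Pdgfd over Pdgfc by -0.50, again without overlap, whereas Pdgfc over Pdgfa differed by -0.86 with overlapping groups (p = 0.2, exact permutation test). The ratio of the receptor genes, Pdgfra over Pdgfrb, was 0.0620, 0.0240 and 0.0444 in hyperoxia and 0.0796, 0.0647 and 0.0739 in room air. It was lower in all hyperoxia libraries, with a log2 difference of -0.84 (p = 0.1, exact permutation test).

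The members were set beside markers of the cells known to make them. All 10 alveolar type 1 epithelial markers tested were higher in hyperoxia, with a median log2 fold change of 1.26, near the 1.22 of Pdgfa. Their summed level was 6043 to 8032 CPM in hyperoxia and 2418 to 3447 CPM in room air, and none was at 0. Ager, the receptor gene that marks these cells, averaged 2284 ± 399 CPM in hyperoxia and 968 ± 212 CPM in room air (log2 fold change 1.24, adjusted p = 0.00270 by edgeR), and Cldn18, a tight junction gene, averaged 1324 ± 218 and 561 ± 139 CPM in hyperoxia and room air (1.24, adjusted p = 0.00271). The largest rises of the list were in Scnn1g, a sodium channel subunit (1.96), Akap5, a kinase anchor (1.80), and Gprc5a (1.42). The ratio of Pdgfa to this sum was 0.0140, 0.0139 and 0.0147 in hyperoxia and 0.0124, 0.0143 and 0.0155 in room air. These values overlapped, with a log2 difference of 0.02 (p = 0.9, exact permutation test). Whether the epithelial cells account for the change of Pdgfa was not tested. Alveolar type 2 markers had 0 of 10 called by edgeR (2 at an unadjusted p below 0.05, 1 lower by DESeq2, 0 by limma-voom, and 2 higher without room air 3), with a median of -0.05 and sums of 14486 to 17434 CPM in hyperoxia and 12897 to 20103 CPM in room air.

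Of 14 pan-endothelial markers, 1 fell and 0 rose by edgeR. At an unadjusted p below 0.05, 4 were lower and 1 higher, and DESeq2 called 2 lower and 1 higher. Over the alternatives 0 to 4 were called lower. The median log2 fold change was -0.28. Their sum was 20203, 14904 and 18965 CPM in hyperoxia 1, 2 and 3, and 22331, 21733 and 15820 CPM in room air 1, 2 and 3. Hyperoxia 2 and room air 3 thus had the lowest sums of their groups. The part of this in the calls that moved with these libraries was not tested. The one that fell was Egfl7, a secreted vessel factor, at 337 ± 32.1 CPM in hyperoxia and 547 ± 86.6 CPM in room air (log2 fold change -0.70, adjusted p = 0.0112 by edgeR, and 0.0596 without hyperoxia 3). Other genes overlap 11.2% of its exonic bases. The highest means over all 6 libraries, in CPM, were those of Cdh5, the cadherin of endothelial junctions, at 3497 ± 703 CPM in hyperoxia and 4584 ± 909 CPM in room air, and Vwf, at 3504 ± 470 CPM in hyperoxia and 2409 ± 650 CPM in room air, and neither was called. Vwf passed as higher by DESeq2 (adjusted p = 0.0353), with no filter (0.0170) and without hyperoxia 2 and room air 3 (0.0284), and Cdh5 passed as lower without those libraries (0.0351). The ratio of Pdgfb to this sum was 0.0217, 0.0272 and 0.0244 in hyperoxia and 0.0307, 0.0297 and 0.0300 in room air. It was lower in all hyperoxia libraries, by 0.31 on the log2 scale, with an exact permutation p of 0.1 (adjusted p = 0.233 over 7 ratios to markers). The ratio of Pdgfd to the same sum overlapped between groups, with a log2 difference of 0.03 (exact permutation p = 0.9).

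Arterial and tip cell genes had 4 of 16 lower and 2 higher, with a median log2 fold change of -0.31 and sums of 4271 to 4874 CPM in hyperoxia and 4622 to 6457 CPM in room air. Tip cells are the leading cells of a sprouting vessel and a known source of PDGF-B. The largest falls were in Cxcl12, a chemokine (log2 fold change -1.18, adjusted p = 0.00306), Sox17, a transcription factor of arteries (-1.0, adjusted p = 0.0101), and Gja4, a connexin (-0.98, adjusted p = 0.0237, all by edgeR). Gja4 lost its call without hyperoxia 2, room air 1 or room air 2, where its adjusted p reached 0.0889. Another gene overlaps 16.8% of the exonic bases of Sox17. The 2 genes of the list called higher were Angpt2 (log2 fold change 0.79, adjusted p = 0.00476) and Apln (0.60, adjusted p = 0.0138, both by edgeR). Fbln5, an elastic fibre gene and an abundant one of the list, averaged 1372 ± 23.0 CPM in hyperoxia and 1113 ± 145 CPM in room air and was not called. The part of endothelial and arterial cells in the level of Pdgfb was not tested.

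Pericyte markers had 2 of 16 higher and 1 lower, with a median log2 fold change of 0.19 and sums of 1503 to 1580 CPM in hyperoxia and 1256 to 1489 CPM in room air. Rgs5, a regulator of G-protein signalling, was at 149 ± 14.9 CPM in hyperoxia and 68.8 ± 21.7 CPM in room air (log2 fold change 1.11, adjusted p = 0.00461 by edgeR), and lost its call without hyperoxia 2 and room air 3 (adjusted p = 0.107). Rgs4, its relative, differed by 0.79 on the log2 scale (adjusted p = 0.0372), and Lamc3, a laminin chain, by -0.70 (adjusted p = 0.0355). These last genes each lost the call in 5 of the 6 fits that left out 1 library: Rgs4 kept it without hyperoxia 1 and Lamc3 without room air 3. Mcam, which endothelium also makes, gave most of the sum, at 1092 ± 116 CPM in hyperoxia and 1048 ± 141 CPM in room air. Kcnj8 and Higd1b, pericyte genes of narrow expression, were at 1.83 to 2.17 CPM on average in either group. The ratio of Pdgfrb to the pericyte sum overlapped between groups, with a log2 difference of -0.09 (exact permutation p = 0.7).

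**Figure D4:**
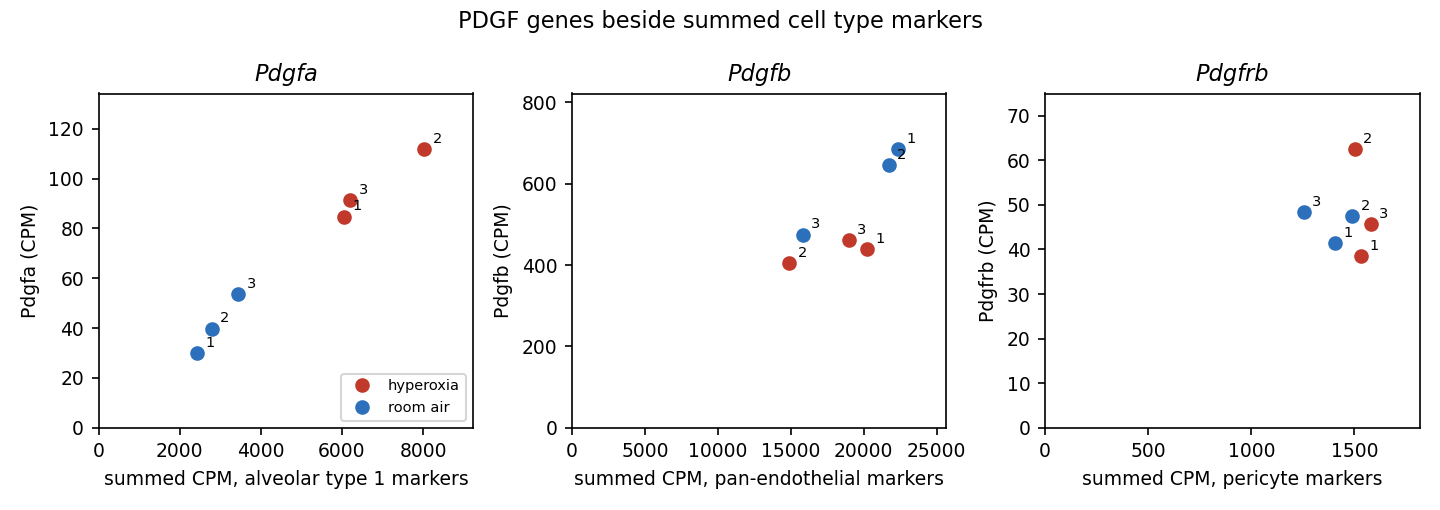
Level of Pdgfa, Pdgfb and Pdgfrb (vertical axes, CPM) against the summed CPM of alveolar type 1, pan-endothelial and pericyte markers (horizontal axes), one point per library with its replicate number. Pdgfa and the type 1 sum are both higher in all 3 hyperoxia libraries, Pdgfb is lower in hyperoxia while the endothelial sums overlap, and the Pdgfrb groups overlap.

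Myofibroblast markers had 1 of 15 higher and none lower, with a median log2 fold change of 0.26. The one was Fgf18, a growth factor of alveolar septation, at 18.6 ± 2.0 CPM in hyperoxia and 7.71 ± 1.6 CPM in room air (log2 fold change 1.27, adjusted p = 0.00238 by edgeR). Acta2, the actin gene of contractile cells, was at 198 ± 90.7 CPM in hyperoxia and 152 ± 36.3 CPM in room air, with hyperoxia 2 the highest library at 296 CPM, and Tgfbi was at 136 ± 19.7 CPM in hyperoxia and 113 ± 10.2 CPM in room air. Neither was called. With the Y-linked term, where the difference rests on hyperoxia 2, the log2 fold change of Acta2 was 0.96. The sum was 550 to 829 CPM in hyperoxia and 488 to 610 CPM in room air. The ratio of Pdgfra to it was 0.00793, 0.00331 and 0.00620 in hyperoxia and 0.0121, 0.0115 and 0.0107 in room air. These values did not overlap, and the log2 difference was -1.07 (p = 0.1, exact permutation test).

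Alveolar fibroblast markers had 3 of 14 higher and 1 lower, with a median of 0.18. Npnt, a matrix protein gene that alveolar type 1 cells also express, differed by 1.27 on the log2 scale (adjusted p = 0.000996), Limch1 by 0.72 (adjusted p = 0.00671), and Scn7a, a sodium channel gene, by -0.79 (adjusted p = 0.0132, all by edgeR; 0.0555 without room air 2). Scn7a was also the most abundant of the list in CPM, at 1138 ± 150 in hyperoxia and 1968 ± 331 in room air. Tcf21, a fibroblast transcription factor, was at 7.64 ± 2.34 CPM in hyperoxia and 6.41 ± 0.872 CPM in room air and was not called. The summed list averaged 2587 CPM in hyperoxia and 2925 CPM in room air. Scn7a was its largest part, Npnt averaged 555 CPM in hyperoxia and 230 CPM in room air, and Tcf21 added little. Which cells gave the Scn7a reads was not tested, so neither its fall nor the sum can be assigned to fibroblasts. The ratio of Pdgfra to this sum, which mostly follows such abundant genes, differed by -0.60 on the log2 scale with overlapping groups (p = 0.2, exact permutation test). Collagen and matrix genes had 0 of 14 called by edgeR, 0 at an unadjusted p below 0.05 and 0 by DESeq2 or limma-voom, with a median of 0.10, and 1 was higher with the Y-linked term. The ratio of Pdgfc to their sum, most of which is Eln, the elastin gene, was higher in all hyperoxia libraries, by 0.28 on the log2 scale (p = 0.1, exact permutation test). The cells that gave the Eln reads were not tested either.

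Markers of other cells were counted as well. By edgeR, 0 were called of 11 smooth muscle, 9 platelet and 10 other leukocyte genes tested. At an unadjusted p below 0.05 these lists held 0, 1 and 1 gene, and DESeq2 called 0, 1 and 1 of them, both lower, and limma-voom called 0. Among single libraries left out, 1 platelet gene was called lower without hyperoxia 1 and 1 leukocyte gene without room air 1. The smooth muscle sum was highest in hyperoxia 2, at 653 CPM. It was 366 and 471 CPM in hyperoxia 1 and 3 and 379 to 509 CPM in room air. Calls in the fits with Y-linked reads rest on hyperoxia 2 and are not counted for these lists. Macrophage markers had 3 of 14 higher and 1 lower, airway markers 1 of 7 higher, mesothelial markers 2 of 5 higher, and erythroid markers 2 of 5 lower. The mesothelial list was split: at an unadjusted p below 0.05, and also by DESeq2, 2 were higher and 2 lower. Pf4, the chemokine gene of platelets, which store PDGF, was at 5.14 to 5.93 CPM in hyperoxia and 2.22 to 5.84 CPM in room air. Ppbp, of the same list, was lower on average, at 0.371 to 2.37 CPM in hyperoxia and 1.61 to 6.49 CPM in room air. Its groups overlapped, and its log2 fold change was -1.90 (adjusted p = 0.0841 by edgeR). The part of these cells in the levels of the PDGF genes was not tested.

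Genes that process PDGF ligands, pass on receptor signals or damp them were counted next. Of 52 tested genes in these lists, 4 rose and 1 fell, which is 9.62% beside 11.2% of all genes tested, with a median log2 fold change of 0.02. The groups of 25 genes (48.1%) did not overlap, beside 30.9% of all genes tested. These counts moved with single libraries: the number that rose was 2 without hyperoxia 1, 1 without hyperoxia 2 and 1 without hyperoxia 3, and the number that fell was 2 without room air 3.

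Among 12 proteases and binding partners of the ligands, 2 rose and none fell, with a median of 0.25. St14, the gene of the membrane protease matriptase, which cuts PDGF-D and PDGF-C in human cells, had 60.8, 87.0 and 70.6 CPM in hyperoxia and 46.8, 38.3 and 54.6 CPM in room air. The groups did not overlap, and the log2 fold change was 0.64 (SE 0.16, adjusted p = 0.0269 by edgeR). Sparc, a matrix protein gene whose product binds PDGF-B, had 5292, 5393 and 5235 CPM in hyperoxia and 3998, 3582 and 3373 CPM in room air. It did not overlap either, with a log2 fold change of 0.54 (SE 0.15, adjusted p = 0.0450 by edgeR). Sparc lost its call when any 1 library was left out (adjusted p 0.0659 to 0.153), and St14 lost it without hyperoxia 2, hyperoxia 3, room air 1 or room air 2 (adjusted p up to 0.101). Plat, the tissue plasminogen activator gene whose product cuts PDGF-C, differed by -0.31 on the log2 scale (adjusted p = 0.183), and Plau, whose product cuts PDGF-D, by 0.58 (adjusted p = 0.0906, both by edgeR). Furin, which cuts PDGF-A and PDGF-B inside the cell, was at 0.23 (adjusted p = 0.363).

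Among 25 adaptors, enzymes and kinases of the receptors, 1 rose and 1 fell, with a median of -0.07. Both are kinases of the Src family. Src had 72.6, 99.6 and 85.6 CPM in hyperoxia and 42, 46.1 and 44.1 CPM in room air. The groups lay far apart, with a log2 fold change of 0.96 (SE 0.13, adjusted p = 0.00118 by edgeR). Yes1 had 82.0, 62.2 and 79.2 CPM in hyperoxia and 114, 127 and 106 CPM in room air. Its log2 fold change was -0.64 (SE 0.13, adjusted p = 0.00987 by edgeR), again without overlap, and other genes overlap 8.46% of its exonic bases. Both kept their calls in all 17 alternative fits run. Fyn, the third of these kinases on the list, was at -0.05 (adjusted p = 0.863).

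Among 15 phosphatases, ubiquitin ligases and other brakes of the receptors, 1 rose and none fell, with a median of -0.02. Cblc, a ubiquitin ligase of the Cbl family, had 7.39, 9.07 and 8.76 CPM in hyperoxia and 4.09, 2.93 and 5.79 CPM in room air. The log2 fold change was 0.98 (SE 0.26, adjusted p = 0.0384 by edgeR), and the call was kept without room air 3 but lost without any other single library (adjusted p up to 0.124). Its relatives Cbl and Cblb were at -0.39 (adjusted p = 0.0501) and 0.02 (adjusted p = 0.957). Ptprb, the abundant phosphatase of endothelium, was at -0.15 (adjusted p = 0.602).

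**Figure D5:**
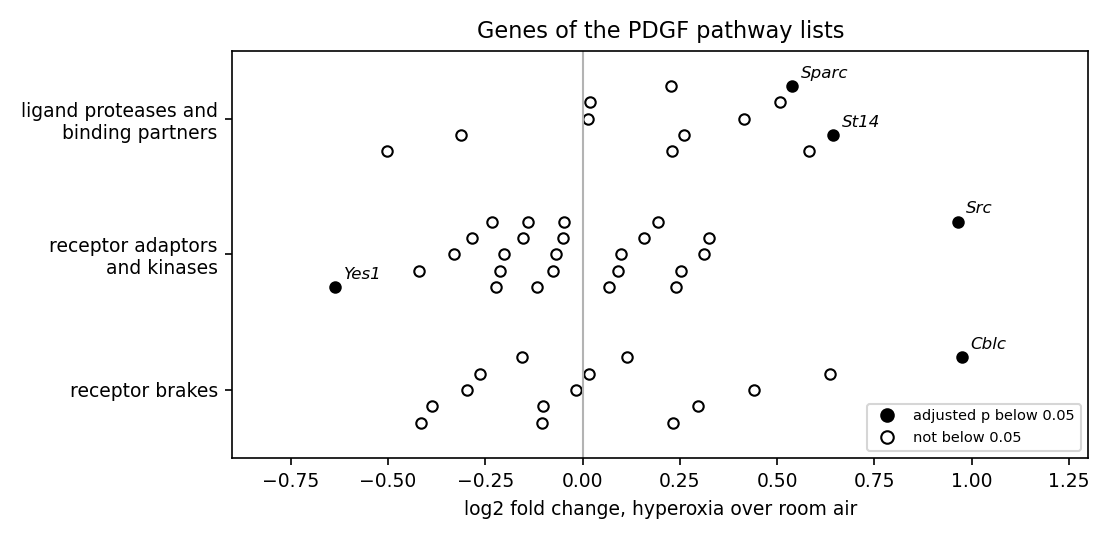
Log2 fold change, hyperoxia over room air (horizontal axis), of the 52 tested genes of the PDGF pathway lists, one point per gene, by list, with points spread vertically for legibility. Filled points are the 4 genes that rose (St14, Sparc, Src and Cblc) and the 1 that fell (Yes1) at an adjusted p below 0.05.

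The genes most like each member were found over the 6 libraries, by the root mean square difference of centred log2 CPM among 10846 candidates. For Pdgfa they were Aqp5, the water channel gene of alveolar type 1 cells (0.0447), Pkp2, a desmosome gene (0.0600), and Egfr, the epidermal growth factor receptor gene (0.0605). For Pdgfb they were Vangl1, a planar polarity gene (0.0293), Klf16 (0.0357) and Tnks1bp1 (0.0422), each at 0.0532 to 0.0683 in adjusted p. For Pdgfrb they were Syne2 (0.0461), Trps1 (0.0541) and Pign (0.0614), and for Pdgfd Blmh (0.0526), Zc3hc1 (0.0555) and Psmd5 (0.0575). The scarce members had less close matches, Cd59a (0.0675), Timm22 and Hras for Pdgfc, and Rgs14 (0.0916), Ppan and Clec1b for Pdgfra. These values describe likeness over 6 libraries in 2 groups.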

How the data were processed

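The authors deposited raw counts per gene for 6 libraries. The tools named per the submitters' processing notes are DESeq2, featureCounts, HISAT2 2.2.1 and Subread 2.0.6, without roles, and the build is GRCm39. The annotation release and the strand setting of counting were not found in the sources used here. Groups and replicate numbers came from the titles. Symbols matched 51948 IDs by Ensembl ID. Exon lengths and overlaps came from GENCODE M21 (GRCm38), so values per kb are approximate.

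Computation used R 4.3.3, edgeR 4.0.16, limma 3.58.1 and DESeq2 1.42.0. filterByExpr (minimum count 10, minimum total 15) left 17072 genes. After TMM scaling, edgeR's quasi-likelihood test (robust) was run without covariates, with p-values adjusted by Benjamini and Hochberg over all genes tested, and called below 0.05. Intervals are 95% and approximate. Libraries of a group differed beyond sampling noise.

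The members and the 18 other lists were chosen with earlier results of these data known. Named genes were called list members by size of change (at most 6 per pathway list, 3 per marker list), the 2 most abundant of the marker lists set beside members, and the 3 nearest profiles per member. Plat, Plau, Furin, Fyn, Cbl, Cblb, Ptprb, Angpt2, Apln, Tcf21, Kcnj8, Higd1b, Eln, Pf4, Ppbp, Sftpc, Xist and 6330403L08Rik were named after their values were seen. Alternatives were DESeq2 size factors, upper-quartile scaling, library size only, no filter or 1 CPM, leaving out libraries, a replicate block, limma-voom, DESeq2's test, and thresholds of 0.01 and 0.1. The Y-linked fits were added after seeing the data, and their oxygen difference rests on hyperoxia 2 against room air.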

Additional observations from a re-analysis of the deposited data

How the results depend on the processing

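Pdgfa kept its call in all 17 alternatives, with log2 fold changes of 1.03 to 1.46. Pdgfb passed with library size only (-0.48, adjusted p = 0.0451), with no filter (-0.46, 0.0175), without hyperoxia 2 and room air 3 together (-0.58, 0.00606) and by DESeq2 (-0.48, 0.0130), and leaving out 1 library gave -0.61 to -0.37. Pdgfra passed by DESeq2 (-0.76), and leaving out 1 library gave -0.91 to -0.58. With the Y-linked term, which rests on hyperoxia 2, Pdgfra was at -1.14. Members called lower numbered 0 to 1 with 1 library left out. They numbered 1 with library size only, no filter, or hyperoxia 2 and room air 3 left out, and 2 by DESeq2 or at an adjusted p below 0.1. Leaving out 1 library turned Pdgfd to 0.023 (range -0.22 to 0.023) and Pdgfrb to -0.12 (range -0.12 to 0.24), and leaving out hyperoxia 2 and room air 3 turned Pdgfrb to -0.092. Mcam turned to -0.13 with the Y-linked term and -0.16 in the libraries with Y-linked reads, and to -0.043 at the lowest with 1 library left out (highest 0.15), and Acta2 to -0.025 without hyperoxia 2 (highest 0.65). With 1 library left out, the log2 ratio to markers ranged over -0.066 to 0.096 for Pdgfa, -0.12 to 0.12 for Pdgfd and -0.30 to 0.069 for Pdgfrb, and with the mean of log2 markers that of Pdgfa was -0.055. The cause of these changes was not tested.

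Pathway genes called higher numbered 8 with no filter, 7 by DESeq2, 1 with the replicate block, 2 in the libraries with Y-linked reads and 1 to 4 with 1 library left out. Those called lower numbered 2 with DESeq2 size factors or without hyperoxia 2 and room air 3, 3 with upper-quartile scaling, library size only, 1 CPM, the Y-linked term or the libraries with Y-linked reads, 5 with no filter or by DESeq2, and 1 to 2 with 1 library left out. Over all genes, 1156 were higher and 753 lower. With 1 library left out these were 681 to 1095 and 376 to 749, lowest without room air 2 for both. The higher count was 713 without hyperoxia 3 and 754 without room air 1, and the lower count was 487, 496 and 430 without hyperoxia 1, 2 and 3. The lower count was 1243 with no filter, 1242 by DESeq2 and 1223 with the Y-linked term.

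The labels do not say whether the replicate numbers pair the samples. Same-numbered libraries correlated at 0.129, -0.0505 and -0.107 in their deviations from the group means, which with 3 libraries a group cannot settle it. With replicate number as a block Pdgfa was at 1.25 (adjusted p = 0.00341), Pdgfb at -0.45 (0.159) and Pdgfra at -0.77 (0.116). With 3 libraries a group, no exact test of a ratio can go below 0.1, and the scarce Pdgfc and Pdgfra rest on 111 to 271 counts a library.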
